A study of Mus musculus with 95 samples.

Results

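Microglia, the resident macrophages of the brain, were followed here through 10 genes. They are the receptor genes Cx3cr1, P2ry12 and Csf1r, the membrane protein gene Tmem119, the receptor gene Trem2 with the gene of its signalling adaptor Tyrobp (DAP12), the complement genes C1qa, C1qb and C1qc, and Aif1, which encodes IBA1. They were taken by symbol, and each matched 1 Ensembl identifier among the 39179 genes of the count table. All 10 passed the filter on low counts in striatum, cortex and liver.

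The mRNA-seq libraries came from 6-month-old mice on a C57BL6/J background, from 2 lines in which the mouse Htt gene carries a knocked-in expanded CAG repeat, as in Huntington's disease. The groups were heterozygous (Het) Z_Q175 (neo-) KI mice of strain CHDI-81003019, here the neo-out line, their wild-type (WT) littermates, Het z_Q175 KI mice of strain CHDI-81003003, here the neo-in line, and their WT littermates; neo is a selection cassette, which the lines are named for. WT mice were housed with the knock-in mice of their line, and the labels name no treatment. Each group held 4 females and 4 males, and striatum and cortex were taken from the left hemisphere and liver from the left lobe. There were 95 libraries of 32 animals, 31 of which had all 3 tissues. The striatum of neo-out Het male replicate 1 was not analysed here, so that group has 7 libraries. CAG numbers were 179 to 208 (median 200) in the 8 neo-out Het mice and 181 to 200 (median 192) in the 8 neo-in Het mice. The comparisons that follow from this design are Het with WT in each tissue and line, and the lines, sexes and tissues with each other.

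Microglia depend on CSF1R, a receptor tyrosine kinase for the cytokines CSF1 and IL-34, and they sense neurons through CX3CR1, the receptor of the neuronal chemokine fractalkine, and nucleotides through P2RY12. TREM2 binds lipids and lipoproteins and signals through DAP12. The C1q chains assemble into the recognition molecule that starts the classical complement pathway, and microglia are its main source in the brain; liver macrophages (Kupffer cells) make C1q as well.

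The 3 C1q genes lie side by side on chromosome 4, within chr4:136880129-136898803 (mm10, minus strand), a stretch of 18.7 kb. The promoters of 6 of the 10 genes matched the RefSeq table (GRCm38.p6), those of P2ry12, C1qb, C1qc, Cx3cr1, Aif1 and Trem2; C1qa, Csf1r, Tmem119 and Tyrobp are named only. Shown are the 250 bases before the RefSeq start of 2 C1q chains, whose levels varied together, of Cx3cr1, which was lower in Het striatum, and of P2ry12, which correlated negatively with the C1q chains in brain. Each is read 5′ to 3′ on the gene's strand, and capitals mark GAGGAA or its complement TTCCTC, the core letters bound by PU.1, a transcription factor of macrophages.
C1qb: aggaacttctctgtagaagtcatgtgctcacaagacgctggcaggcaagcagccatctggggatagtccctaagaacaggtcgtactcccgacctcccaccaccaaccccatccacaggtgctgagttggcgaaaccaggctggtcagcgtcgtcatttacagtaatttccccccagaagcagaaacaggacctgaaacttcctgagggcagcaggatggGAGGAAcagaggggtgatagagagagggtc
C1qc: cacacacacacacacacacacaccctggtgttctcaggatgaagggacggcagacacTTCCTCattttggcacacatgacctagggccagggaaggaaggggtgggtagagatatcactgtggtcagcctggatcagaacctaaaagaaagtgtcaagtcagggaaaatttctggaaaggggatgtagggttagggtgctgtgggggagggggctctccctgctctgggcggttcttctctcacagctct
Cx3cr1: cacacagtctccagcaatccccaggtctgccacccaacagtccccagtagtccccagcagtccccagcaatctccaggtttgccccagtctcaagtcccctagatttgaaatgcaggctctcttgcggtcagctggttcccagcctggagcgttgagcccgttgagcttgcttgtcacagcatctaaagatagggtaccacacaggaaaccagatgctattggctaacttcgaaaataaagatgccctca
P2ry12: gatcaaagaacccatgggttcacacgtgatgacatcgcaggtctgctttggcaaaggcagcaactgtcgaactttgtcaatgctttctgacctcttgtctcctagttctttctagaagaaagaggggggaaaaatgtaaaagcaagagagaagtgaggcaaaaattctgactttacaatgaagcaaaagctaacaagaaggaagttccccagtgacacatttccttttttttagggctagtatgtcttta
The windows are chr4:136886201-136886450 for C1qb, chr4:136892915-136893164 for C1qc, chr9:120068297-120068546 for Cx3cr1 and chr3:59262986-59263235 for P2ry12, all on the minus strand. Searched on both strands, GAGGAA was in 4 of the 6 matched windows (C1qb, C1qc, Aif1 and Trem2), against 23.3% of the 32851 RefSeq windows of the same length. Its first base lay at -30 from the start in C1qb and at -193 in C1qc. The letters TGANTCA, the AP-1 site, were in 1 of the 6 windows (Trem2), against 6.75% of all windows, and GAAA followed after NN by a further GAAA, a repeat bound by interferon regulatory factors, in 1 (Aif1), against 2.98%. No match of one motif overlapped a match of another. A match is a description of these letters, and its absence says only that they are not in the window.

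Library totals, in counts divided by 1e+06, were 31.1 to 43.05 in striatum, 31.02 to 43.99 in cortex and 33.12 to 68.36 in liver. Summed markers fitted the tissue labels: 7 hepatocyte genes together reached 81400 to 117000 CPM (counts per 1e+06 counts of a library) in liver, 8 genes of cortical excitatory neurons 1310 to 1780 CPM in cortex, and 10 genes of striatal projection neurons 8210 to 11000 CPM in WT striatum. In striatum Htt, the targeted gene, had 158.5 to 176.9 CPM in neo-out Het against 153.9 to 204.3 CPM in neo-out WT, and 119.7 to 169.4 CPM in neo-in Het against 186.0 to 206.0 CPM in neo-in WT. There the groups overlapped in the neo-out line, whose lowest striatum library was WT. In striatum, 7 libraries stood apart in Slc17a7 or Ttr, genes of neighbouring cortex and choroid plexus. Most were neo-out WT, namely female replicates 1, 3 and 4 and male replicate 2. The others were neo-out Het male replicate 4, neo-in WT female replicate 3 and neo-in Het male replicate 2. Leaving them out thus takes most from the neo-out WT group. Het, line and sex comparisons within striatum were also run without them. Comparisons with cortex and the counts of gene lists were not. In whole tissue, fewer microglia and less RNA per microglial cell cannot be told apart.

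In WT brain, C1q genes led the 10 in FPKM, a unit corrected for transcript length that allows levels of different genes to be set side by side. In the 16 WT striatum libraries C1qb averaged 40.5 ± 5.81 FPKM (SD) and C1qa 35.7 ± 4.85 FPKM. Csf1r followed with 29.9 ± 1.70 FPKM, C1qc with 26.4 ± 3.42, and Tyrobp, P2ry12 and Cx3cr1 with 21.4 ± 2.27, 20.2 ± 2.37 and 19.4 ± 1.40 FPKM. Tyrobp, P2ry12 and Cx3cr1 did not differ beyond their spread: Tyrobp was above P2ry12 in 9 of 16 libraries, and P2ry12 above Cx3cr1 in 11. Below a gap in which no libraries overlapped came Trem2 (8.50 ± 1.18 FPKM), Tmem119 (7.65 ± 0.91) and Aif1 (6.04 ± 0.56), whose ranges met. C1qb was above C1qa in all 16 libraries, C1qa above Csf1r in 15 and Csf1r above C1qc in 14, although the ranges of each pair met.

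WT cortex held nearly the same order at lower levels, from C1qb (31.7 ± 5.46 FPKM), C1qa (30.0 ± 5.26) and C1qc (23.5 ± 3.98) down to Aif1 (4.57 ± 0.531). There C1qc was above Csf1r (22.5 ± 1.89 FPKM) in 9 of 16 libraries, Tyrobp (16.9 ± 2.31) above P2ry12 (15.7 ± 2.86) in 8, and Tmem119 (7.19 ± 0.726) above Trem2 (7.08 ± 0.852) in 8, so these neighbours did not differ beyond their spread. Cx3cr1 stood at 14.0 ± 1.16 FPKM, below P2ry12 in 13 libraries and above every library of Tmem119.

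WT liver parted the genes into a high and a low set. C1qa (30.6 ± 7.13 FPKM), C1qb (29.9 ± 7.43) and C1qc (median 25.1, range 13.6 to 37.05) were at about their brain levels, with Tyrobp at 14.7 ± 3.44, Csf1r at 12.6 ± 4.24 and Aif1 at 3.89 ± 1.21 FPKM. The other 4 were at most 1.0 FPKM in every WT liver: P2ry12 averaged 0.650 ± 0.211 FPKM, Trem2 0.404 ± 0.157, Tmem119 0.319 ± 0.137 and Cx3cr1 0.299 ± 0.156. Cx3cr1 in WT liver rests on 15 to 97 counts a library. The summed level of 12 Kupffer cell markers was 425 to 892 CPM in liver, against 15.4 to 27.4 CPM in the brain libraries.

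**Figure D1:**
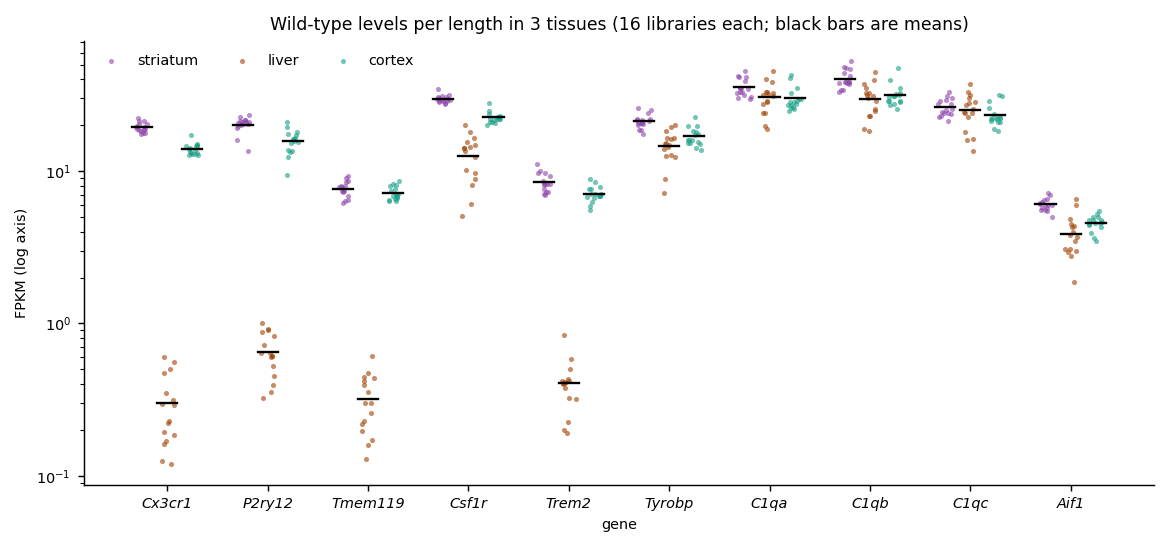
Wild-type levels of the 10 genes in striatum, liver and cortex, in FPKM on a log axis, with 1 point per library (16 per tissue) and a bar at the mean. Cx3cr1, P2ry12, Tmem119 and Trem2 reach at most 1.0 FPKM in liver, while the C1q genes keep about the level they have in brain.

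Set against WT cortex in edgeR's quasi-likelihood test, 9 of the 10 genes were higher in WT striatum, against 37.5% of all 18295 genes tested that were called higher at an adjusted p below 0.05 (73.7% in either direction). Cx3cr1 had the largest difference of the 10, 0.47 on the log2 scale (SE 0.030, adjusted p = 1.05e-20), and was higher in striatum in all 16 WT animals. Aif1 (0.40), Csf1r (0.39) and C1qb (0.35) were also higher in all 16, P2ry12 (0.36) and Trem2 (0.23) in 15, and Tyrobp (0.33) and C1qa (0.24) in 14. C1qc was 0.16 higher (edgeR adjusted p = 0.0428, 12 of 16 animals); its call was lost without the filter on low counts (adjusted p = 0.0546) and in 9 of 32 refits that leave out 1 animal (adjusted p 0.0537 to 0.107). Tmem119 did not pass, at 0.08 (95% confidence interval -0.04 to 0.20), with striatum above cortex in 9 of 16 animals.

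Between WT liver and WT cortex the markers of brain microglia fell away: Cx3cr1 was -4.65 on the log2 scale, P2ry12 -3.63, Tmem119 -3.58 and Trem2 -3.34, each lower in liver in all 16 animals. By mean FPKM, cortex held 46.8 times the liver level of Cx3cr1, 24.2 times that of P2ry12, 22.6 times that of Tmem119 and 17.5 times that of Trem2. edgeR called these 4 lower and C1qa, C1qb, C1qc, Tyrobp and Aif1 higher in liver, but 92.8% of the 18686 genes tested were called (42.4% higher and 50.4% lower) and the median over all genes was -0.20. The C1q genes were 0.86 to 1.04 higher in liver by edgeR and 0.943 to 1.07 times the cortex level by mean FPKM, with liver above cortex in 8 of 16 animals for C1qa, 6 for C1qb and 8 for C1qc. Tyrobp and Aif1, at 0.73 and 0.70 higher by edgeR, were 0.867 and 0.851 times the cortex level by FPKM, so their direction depends on the scale. Csf1r was not called (0.07, interval -0.16 to 0.30) and stood at 0.560 times its cortex level by FPKM.

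In Het striatum the receptors for fractalkine and for CSF1 were lower in the test with both lines together, and Aif1 passed it narrowly. Cx3cr1 stood at 95.8% of the WT mean in the neo-out line and 88.2% in the neo-in line. Csf1r stood at 96.4% and 89.1% and Aif1 at 88.2% and 93.1%. By line, Cx3cr1 and Csf1r passed in the neo-in line only and Aif1 in neither. The C1q chains, Trem2, Tyrobp, P2ry12 and Tmem119 did not pass with both lines together. With both lines together (15 Het and 16 WT libraries), 3 of the 10 genes were called lower and 0 higher, against 15.8% of the 17703 genes tested that were called lower and 16.5% called higher (32.3% in all). All 10 estimates were below 0, and their median was -0.06 on the log2 scale, beside 0.01 over all genes. The 10 genes vary together between libraries (median Pearson r 0.44), so they are not 10 separate observations. Trem2, the closest to 0, became 0.009 with the mean level of ribosomal protein genes as a covariate. The 3 called genes were Cx3cr1, Csf1r and Aif1, and without the 7 libraries that stood apart 2 were called.

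Cx3cr1, the fractalkine receptor, had 55.4, 60.4 and 66.2 CPM (lowest, median and highest) in neo-out Het striatum, against 60.6, 62.8 and 67.6 CPM in neo-out WT striatum. In the neo-in line it had 57.9, 61.9 and 69.1 CPM in Het, against 64.4, 70.2 and 75.8 CPM in WT. The groups overlapped in both lines, but 4 of 7 neo-out Het libraries and 6 of 8 neo-in Het libraries lay below every WT library of their line, and all 8 neo-in Het libraries lay below the WT median. In edgeR's test the neo-in difference was -0.18 (interval -0.26 to -0.10, adjusted p = 0.000989), in a line in which 10.7% of genes were called lower. The neo-out difference was -0.07 (interval -0.15 to 0.01, adjusted p = 0.245), and that of both lines together -0.13 (SE 0.028, adjusted p = 0.000776). The annotated span of Cx3cr1 overlaps 5 other genes, Wdr48, Gorasp1, Ttc21a, Csrnp1 and Xirp1. Among them Csrnp1, on the same strand, averaged 5.16 CPM and also fell (-0.34, edgeR adjusted p = 0.00857). P2ry12 overlaps Med12l (56.4 CPM in striatum), and Csf1r overlaps Hmgxb3 (45.5 CPM) and Mir6983 (0.0 CPM). Med12l and Hmgxb3, on the opposite strand, were at 0.04 and 0.05 (edgeR adjusted p = 0.407 and 0.167). The part of the overlapping genes in the results was not tested.

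Csf1r, the receptor on which microglia depend for survival, had 106.5, 110.7 and 117.5 CPM in neo-out Het striatum, against 110.8, 116.5 and 123.3 CPM in neo-out WT. The neo-in Het libraries had 100.4, 108.8 and 120.3 CPM, against 116.2, 120.6 and 142.7 CPM in neo-in WT. The groups overlapped in both lines, and 4 of 7 neo-out Het libraries and 7 of 8 neo-in Het libraries lay below every WT library. The differences were -0.06 in the neo-out line (interval -0.14 to 0.03, edgeR adjusted p = 0.390), -0.17 in the neo-in line (interval -0.25 to -0.085, adjusted p = 0.0034) and -0.11 in both lines (adjusted p = 0.00362). With limma on log2 FPKM the both-lines value was -0.07 and no longer passed (adjusted p = 0.0541).

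P2ry12, the ADP receptor that steers microglial processes, had 33.6, 44.3 and 48.4 CPM in neo-out Het and 34.5, 44.3 and 49.8 CPM in neo-out WT striatum. It had 38.6, 42.1 and 44.25 CPM in neo-in Het and 28.5, 44.8 and 48.8 CPM in neo-in WT striatum. All 8 neo-in Het libraries lay below the WT median, yet the lowest library of the line was WT. The both-lines difference was -0.05 (interval -0.17 to 0.07). Tmem119, a marker of resident microglia, gave -0.04 (interval -0.17 to 0.10), with 12.75 to 21.7 CPM in neo-out Het against 13.85 to 19.4 CPM in neo-out WT and 13.6 to 21.1 CPM in neo-in Het against 15.4 to 20.9 CPM in neo-in WT.

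Trem2 did not pass between genotypes, with 11.1 to 14.1 CPM in neo-out Het against 11.1 to 13.2 CPM in neo-out WT, and 9.66 to 15.5 CPM in neo-in Het against 10.3 to 15.7 CPM in neo-in WT. Its both-lines difference was -0.003 (interval -0.12 to 0.11). Tyrobp, its adaptor, had medians of 11.8 CPM in neo-out Het and 11.7 CPM in neo-out WT, and of 11.25 CPM in neo-in Het and 12.5 CPM in neo-in WT, and all groups overlapped. Its difference was -0.02 in the neo-out line and -0.16 in the neo-in line (interval -0.31 to -0.01, edgeR adjusted p = 0.139). The neo-in value passed when neo-in Het female replicate 3 was left out (-0.21, adjusted p = 0.0360) and when the mean level of ribosomal protein genes was a covariate (-0.16, adjusted p = 0.0311).

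The C1q chains differed less between genotypes than among animals of 1 group. C1qa had 30.5, 34.25 and 40.5 CPM in neo-out Het against 31.4, 35.3 and 44.3 CPM in neo-out WT, and 30.2, 37.4 and 47.9 CPM in neo-in Het against 33.6, 37.3 and 49.2 CPM in neo-in WT. C1qb had 35.4, 39.4 and 46.5 CPM in neo-out Het against 36.4, 41.4 and 52.1 CPM in neo-out WT, and 34.3, 43.8 and 55.1 CPM in neo-in Het against 41.2, 44.5 and 57.6 CPM in neo-in WT. C1qc had 23.4, 32.65 and 35.9 CPM in neo-out Het against 26.0, 29.3 and 35.75 CPM in neo-out WT, and 26.5, 32.3 and 41.9 CPM in neo-in Het against 27.2, 32.1 and 41.45 CPM in neo-in WT. Every pair of groups overlapped, and the both-lines differences were -0.04, -0.07 and -0.03 for C1qa, C1qb and C1qc. Their intervals, of which the widest is -0.22 to 0.07 for C1qb, leave room for small changes either way.

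Aif1, whose product IBA1 is the usual stain for microglia, had 3.90, 4.55 and 5.30 CPM in neo-out Het against 4.61, 5.13 and 6.09 CPM in neo-out WT, and 4.15, 4.61 and 5.09 CPM in neo-in Het against 4.18, 4.98 and 5.90 CPM in neo-in WT. Groups overlapped in both lines, with 4 of 7 neo-out Het libraries and 1 of 8 neo-in Het libraries below every WT library. The both-lines difference of -0.14 passed narrowly (interval -0.25 to -0.035, edgeR adjusted p = 0.0364). It did not pass without the filter on low counts (adjusted p = 0.0716), with the replicate number as a block (0.110), in limma (0.109), without the 7 libraries that stood apart (0.180), or in 11 of 31 refits that leave out 1 library (0.0512 to 0.0683). By line it was -0.18 in the neo-out line (adjusted p = 0.102) and -0.105 in the neo-in line (adjusted p = 0.341); leaving out neo-out Het female replicate 4 made the neo-out value -0.22 (adjusted p = 0.0465).

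**Figure D2:**
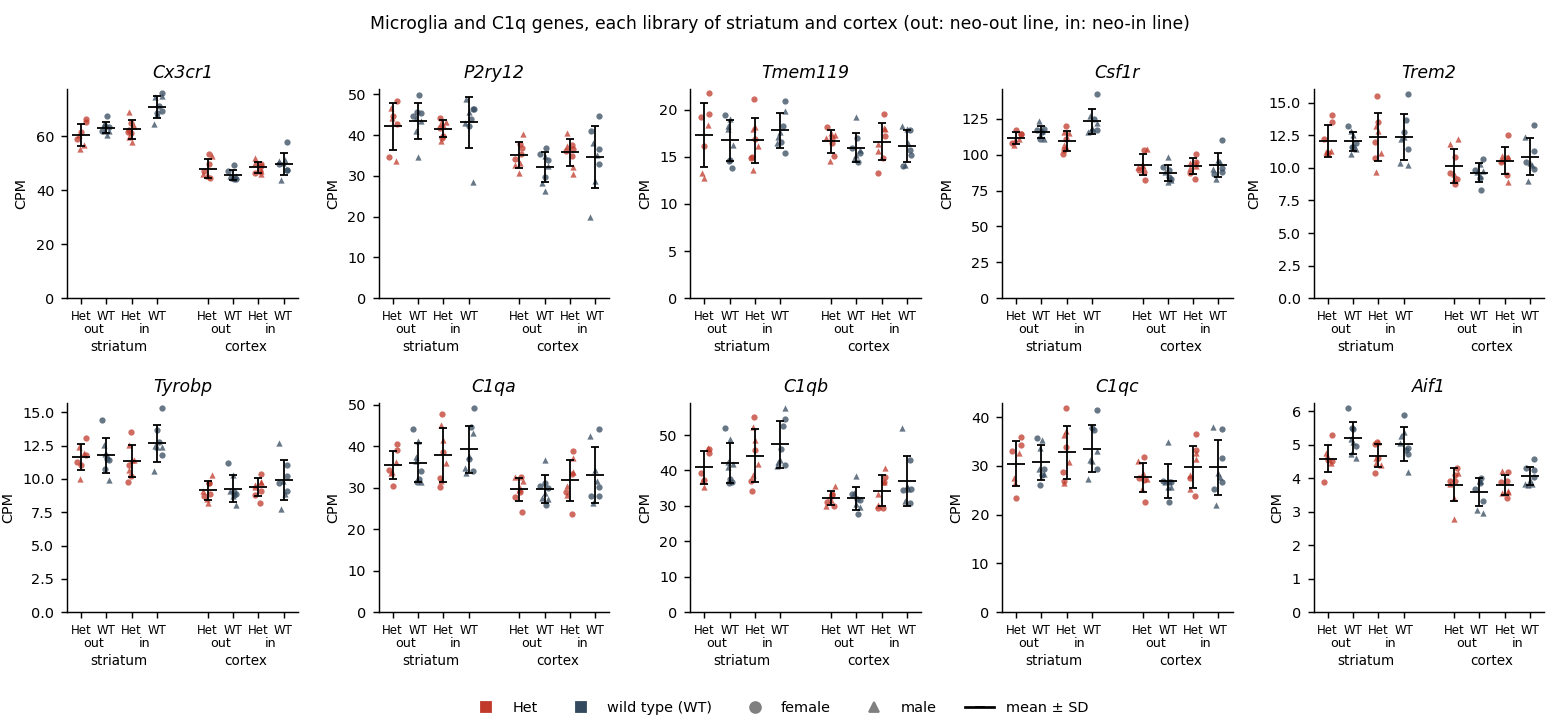
CPM of the 10 genes in each striatum and cortex library, by line and genotype, with females as circles, males as triangles and the mean ± SD in black. In neo-in striatum the Het points of Cx3cr1 (57.9 to 69.1 CPM) and Csf1r (100.4 to 120.3 CPM) sit mostly under the WT points, while those of the C1q genes and Trem2 cover the WT range.

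By line, 0 of the 10 genes were called in the neo-out line, where 18% of genes were called in either direction, and 2 (Cx3cr1 and Csf1r) in the neo-in line, where 19.4% were. In the neo-out line 1 of the 10 (Aif1) was below an unadjusted p of 0.05, and DESeq2 and limma also called 0. The lines were not shown to differ: the neo-out less the neo-in effect was 0.11 for Cx3cr1 (interval -0.004 to 0.225), 0.11 for Csf1r (-0.01 to 0.23), 0.14 for Tyrobp (-0.08 to 0.36) and between -0.07 and 0.10 for the other 7. None of the 10 was called in that test or was below an unadjusted p of 0.05 in edgeR, DESeq2 and limma called 0 of them as well, and 0.00565% of all genes were called.

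Among WT mice, Cx3cr1 was lower in neo-out than in neo-in striatum, with 63.2 ± 2.16 CPM against 70.9 ± 3.98 CPM (SD, n = 8 each), whereas the Het groups averaged 60.6 ± 4.07 CPM in the neo-out line (n = 7) and 62.5 ± 3.44 CPM in the neo-in line (n = 8). The WT difference was -0.17 (edgeR adjusted p = 0.0445), in a comparison that called 0.469% of genes. Of the 10 genes, 2 were below an unadjusted p of 0.05 and only Cx3cr1 was called. It did not pass without the filter on low counts (adjusted p = 0.0727), in limma (0.109), without the libraries that stood apart (0.840) or in 18 of 31 refits that leave out 1 library (0.0509 to 0.137). The neo-in Het effect on Cx3cr1 is therefore measured against the higher of the WT groups. Csf1r, not called between WT lines, also averaged more in neo-in WT striatum, at 123.2 ± 8.8 CPM against 116.0 ± 4.09 CPM in neo-out WT. Its Het groups averaged 109.7 ± 6.88 CPM in the neo-in line and 111.8 ± 3.97 CPM in the neo-out line. In WT cortex 0 of the 10 were called between lines, where 1.79% of genes were, with 4 below an unadjusted p of 0.05 and 0 called by DESeq2 or limma; Cx3cr1 was -0.125 there (interval -0.22 to -0.03, edgeR adjusted p = 0.187).

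In Het cortex none of the 10 genes passed the test. With both lines together 0 of the 10 genes were called, against 6.83% of the 17444 genes tested; 0 were below an unadjusted p of 0.05, and DESeq2 and limma also called 0. The median of the 10 was 0.015 on the log2 scale, beside 0.002 over all genes. Cx3cr1 had 44.5, 46.4 and 53.5 CPM in neo-out Het cortex against 44.2, 45.1 and 49.4 CPM in neo-out WT, and 46.0, 48.1 and 51.9 CPM in neo-in Het against 43.7, 49.97 and 57.9 CPM in neo-in WT. The groups overlapped, and the both-lines difference was 0.015 (interval -0.05 to 0.08). Csf1r had 82.2, 91.9 and 103.8 CPM in neo-out Het against 81.0, 86.0 and 98.7 CPM in neo-out WT and 83.1, 93.0 and 100.8 CPM in neo-in Het against 83.1, 90.7 and 110.4 CPM in neo-in WT, a difference of 0.04 (interval -0.04 to 0.12). The other 8 lay between -0.055 for C1qb and 0.09 for P2ry12. By line, 0 of the 10 were called in the neo-out line (2.8% of genes called) and 0 in the neo-in line (1.67%), with 0 below an unadjusted p of 0.05 and 0 called by DESeq2 or limma in each. The difference between the lines' cortex effects was called for 0 of the 10 and for 0% of genes by edgeR, with 0 of the 10 below an unadjusted p of 0.05 and 0 called by DESeq2 or limma.

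The difference between the brain regions was itself tested. The Het effect in striatum less that in cortex was -0.145 for Cx3cr1 (interval -0.23 to -0.06, edgeR adjusted p = 0.0166) and -0.156 for Csf1r (interval -0.25 to -0.06, adjusted p = 0.0219), and these 2 of the 10 were called, against 6.23% of the 18295 genes tested that were called lower (11% in either direction). The Csf1r call was lost when neo-in WT female replicate 1 was left out (-0.126, adjusted p = 0.0642). P2ry12 (-0.145, interval -0.33 to 0.04) and Aif1 (-0.13, interval -0.28 to 0.01) had estimates of like size with wider intervals and did not pass. The C1q chains were between -0.05 and -0.01.

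**Figure D3:**
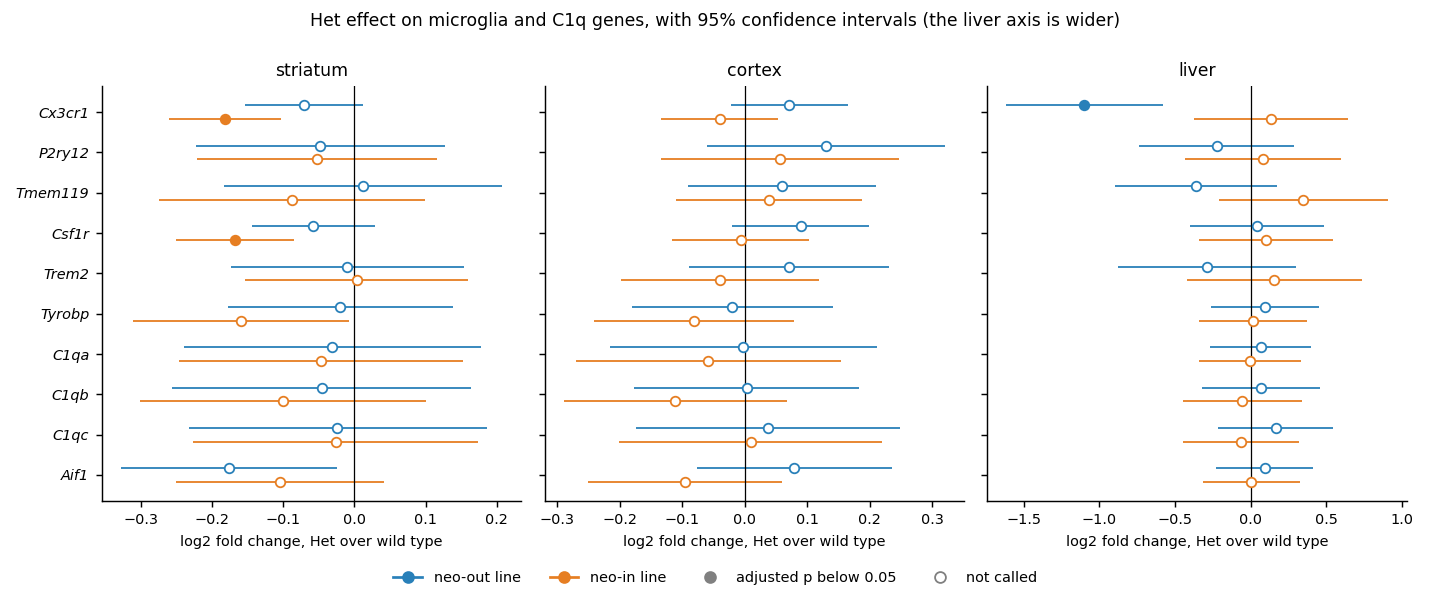
Het effect on each of the 10 genes in striatum, cortex and liver, as the log2 fold change of Het over WT with its 95% confidence interval, for the neo-out line (blue) and the neo-in line (orange); filled points have an adjusted p below 0.05, and the liver axis is wider. Cx3cr1 and Csf1r are filled in neo-in striatum at -0.18 and -0.17, no point is filled in cortex, and Cx3cr1 alone is filled in liver, at -1.10 in the neo-out line.

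In liver, whose resident macrophages are Kupffer cells, C1q, Tyrobp, Csf1r and Aif1 did not pass the test in either line. The intervals were wide, with C1qb at 0.07 in the neo-out line (-0.32 to 0.46) and -0.05 in the neo-in line (-0.45 to 0.34). Cx3cr1, near the floor of detection in liver, had 0.216, 0.582 and 1.04 CPM in neo-out Het against 0.538, 1.10 and 2.07 CPM in neo-out WT, from 8 to 38 and 21 to 97 counts a library. All 8 neo-out Het livers were below the WT median, and the difference was -1.10 (interval -1.62 to -0.58, edgeR adjusted p = 0.0388), the only call among the 10 where 0.533% of genes were called. It was not called with the replicate number as a block (adjusted p = 0.0846), in limma (0.0584), with the ribosomal covariate (0.0568) or in 14 of 32 refits that leave out 1 library (0.0516 to 0.105). In the neo-in line Cx3cr1 had 0.452, 0.902 and 1.10 CPM in Het against 0.354, 0.682 and 1.89 CPM in WT (0.13, interval -0.37 to 0.64), and 0 of the 10 were called, against 0.539% of genes, with 0 below an unadjusted p of 0.05 and 0 by DESeq2 or limma.

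With both lines together 0 of the 10 were called in liver, against 0.0658% of genes; 1 (Cx3cr1, -0.48, edgeR adjusted p = 0.255) was below an unadjusted p of 0.05, and DESeq2 and limma called 0. The lines' liver effects were not shown to differ by edgeR, which called 0 of the 10 and 0.835% of genes, with Cx3cr1 at -1.23 (adjusted p = 0.0922) the 1 gene below an unadjusted p of 0.05. DESeq2 called that gene (adjusted p = 0.0377), as did edgeR without neo-in WT male replicate 3 (-1.49, adjusted p = 0.0159), and limma called 0. Between WT livers, Tmem119 was higher in the neo-out line, with 0.933 ± 0.331 CPM against 0.505 ± 0.124 CPM in the neo-in line (0.86, edgeR adjusted p = 0.0389), 1 of the 10 in a comparison that called 9.36% of genes. That call was lost without the filter on low counts (adjusted p = 0.0583), in limma (0.0596) and in 11 of 32 refits (0.0518 to 0.0877), while without neo-in WT male replicate 3 Cx3cr1 was called too (0.84, adjusted p = 0.0140).

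Females and males were compared over both genotypes and lines. None of the 10 was called between females and males in striatum (0.378% of genes called) or in cortex (0.298%), by edgeR, DESeq2 or limma, with 1 and 2 of them below an unadjusted p of 0.05. Trem2 was 0.15 higher in female striatum (interval 0.03 to 0.26, edgeR adjusted p = 0.220), and P2ry12 was 0.16 higher in female cortex (interval 0.02 to 0.29, adjusted p = 0.404). In liver, where 49.2% of genes were called between the sexes, Aif1 alone of the 10 was called, 0.40 higher in females (edgeR adjusted p = 0.00424), but with the ribosomal covariate its value was 0.17 (adjusted p = 0.573). limma on FPKM, which moves the median of all genes by 0.132 towards females, called 6 of the 10. Without neo-in WT male replicate 3 edgeR also called Cx3cr1 (0.45, adjusted p = 0.0201) and Csf1r (0.39, adjusted p = 0.0283), and without neo-out Het male replicate 3 Csf1r (0.38, adjusted p = 0.0369). The test of whether the Het effect differs between females and males called 0 of the 10 in each tissue by edgeR, DESeq2 and limma, with 0% of all genes called by edgeR; 1 gene was below an unadjusted p of 0.05, Tmem119 in striatum (0.31, interval 0.04 to 0.58, adjusted p = 0.927).

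Of 30 other microglia markers in striatum, 7 were called lower and 1 higher, 26 estimates were below 0, and the median was -0.075, beside 0.01 over all genes. That fit called 15.8% of all genes lower, 16.5% higher and 32.3% in either direction. The 8 calls among 30 are no larger a share than among all genes. Fcrls, a microglial Fc receptor-like gene, had 19.4 ± 1.63 CPM in Het against 23.3 ± 2.42 CPM in WT (-0.26, edgeR adjusted p = 1.87e-05; n = 15 and 16). Irf8, a transcription factor of myeloid cells, had 5.89 ± 0.702 CPM in Het against 7.11 ± 0.854 CPM in WT (-0.28, adjusted p = 0.000497). Tgfbr1, a TGF-beta receptor, was at -0.15 (adjusted p = 0.000649) and Rgs10, a regulator of G protein signalling, at -0.16 (adjusted p = 0.00154). The summed level of the 30 overlapped between genotypes, with 643 to 724 CPM in neo-out Het against 665 to 746 CPM in neo-out WT and 636 to 747 CPM in neo-in Het against 695 to 794 CPM in neo-in WT. In cortex 1 of the 30 was called, Selplg, the P-selectin ligand, with 24.2 ± 2.39 CPM in Het against 21.3 ± 2.54 CPM in WT (0.18, adjusted p = 0.0449). The cortex fit called 6.83% of all genes, so 1 of 30 is no larger a share.

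Genes that mark disease-associated microglia, the state entered through TREM2 in mouse models of amyloid disease, were called in both directions. Of 24 tested in striatum, 2 were called higher and 2 lower, with a median of 0.015. The 4 calls among 24 are a smaller share than the 32.3% over all genes. The 4 are all expressed by other brain cells too: Timp2, a metalloproteinase inhibitor, rose (0.31, edgeR adjusted p = 7.57e-10), as did the lysosomal protease gene Ctsl (0.14, adjusted p = 0.00109), while the ferritin gene Fth1 fell (-0.24, adjusted p = 1.12e-05), as did Axl, a receptor for dying cells (-0.10, adjusted p = 0.00255). In cortex 1 of 23 was called, Ctsl (0.09, adjusted p = 0.0289), no larger a share than the 6.83% over all genes there. Of 16 cytokine and chemokine genes, 9 could be tested in striatum and 8 in cortex; edgeR, DESeq2 and limma called 0 in each, and 0 were below an unadjusted p of 0.05.

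Of 6 ligands of microglial receptors, 1 rose and 1 fell in striatum. These calls are about the share over all genes in that fit (32.3% in either direction). Cx3cl1, which encodes fractalkine, had 408, 471 and 502 CPM in neo-out Het striatum against 596, 622 and 651 CPM in neo-out WT, and 443, 468 and 527 CPM in neo-in Het against 575, 646 and 718 CPM in neo-in WT. No Het library reached the lowest WT library of its line, and Cx3cl1 fell by 0.44 on the log2 scale in both lines together (SE 0.03, edgeR adjusted p = 1.99e-11). It also fell in cortex, with 628 ± 41.9 CPM in Het against 722 ± 64.8 CPM in WT (-0.20, adjusted p = 0.000477). Cd200, whose product restrains myeloid cells, rose in striatum: 70.4, 84.3 and 93.9 CPM in neo-out Het against 55.8, 63.0 and 66.3 CPM in neo-out WT, and 72.5, 79.9 and 86.8 CPM in neo-in Het against 47.5, 59.6 and 69.1 CPM in neo-in WT (0.44, adjusted p = 5.77e-10). Its groups did not overlap in either line, and in cortex its difference was 0.05 (adjusted p = 0.560). How many of all genes have groups that do not overlap is not given here.

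The ligands of Csf1r were nearer to WT. Il34 had 31.5 ± 2.51 CPM in Het striatum against 33.2 ± 2.53 CPM in WT striatum (-0.08, edgeR adjusted p = 0.0952) and was at -0.02 in cortex (adjusted p = 0.797). Csf1 was at -0.01 in striatum (adjusted p = 0.863) and rose in cortex, with 22.1 ± 1.99 CPM in Het against 20.3 ± 2.11 CPM in WT (0.12, adjusted p = 0.0192). Tgfb1 and Tgfb2 did not pass in striatum, at 0.07 and 0.09 (adjusted p = 0.616 and 0.131).

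**Figure D4:**
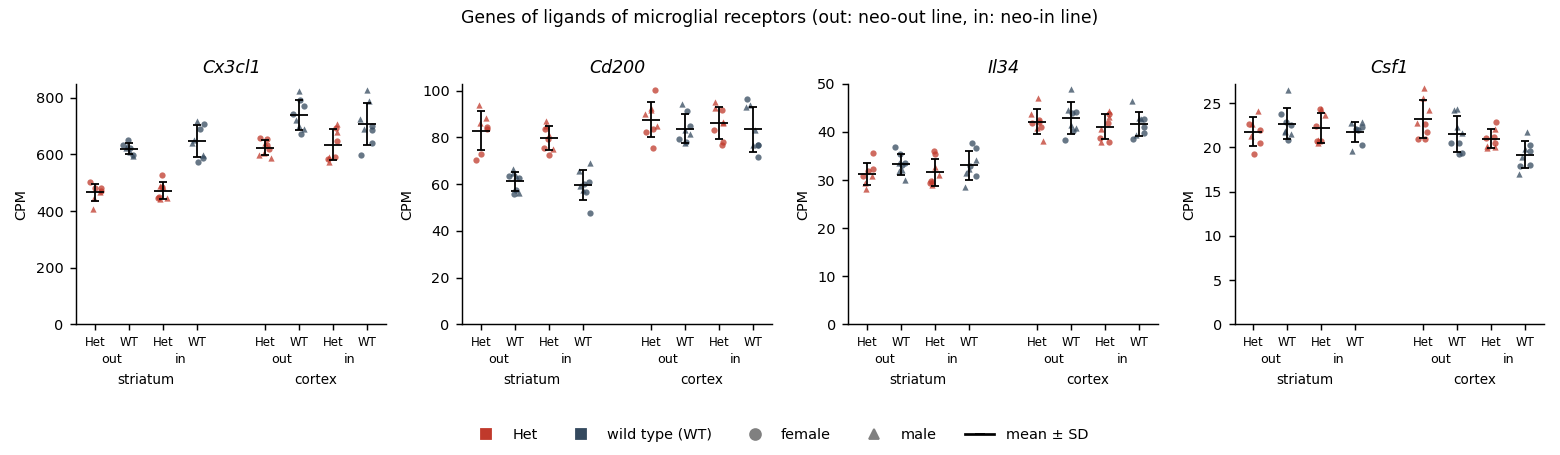
CPM of Cx3cl1, Cd200, Il34 and Csf1 in each striatum and cortex library, with females as circles, males as triangles and the mean ± SD in black. The Het and WT points of Cx3cl1 and Cd200 do not overlap in striatum (Cx3cl1 at most 527 CPM in Het and at least 575 CPM in WT; Cd200 at least 70.4 CPM in Het and at most 69.1 CPM in WT), while those of Il34 and Csf1 do.

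Of the complement cascade beyond C1q, 13 of 20 genes could be tested in striatum, and 4 were called lower and 0 higher. That is about the share called in either direction over all genes (32.3%), while 15.8% of all genes were called lower. C4a had 2.38 ± 0.499 CPM in Het against 4.02 ± 0.470 CPM in WT (-0.75, edgeR adjusted p = 7.35e-08), and C3, the central component, had 1.61 ± 0.585 CPM in Het against 2.17 ± 0.587 CPM in WT (-0.44, adjusted p = 0.0128). C1rl and Masp2, both under 1 CPM, were at -0.57 and -0.46 (adjusted p = 0.0136 and 0.0343). C4a and C4b are near-identical copies, so reads may be split between them, and C4a is uncertain for that reason. In cortex 1 of 13 was called, the lectin pathway protease Masp1, with 8.61 ± 0.897 CPM in Het against 7.19 ± 0.830 CPM in WT (0.26, adjusted p = 0.000490). A count of 1 in 13 is near the 6.83% of all genes called in cortex.

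Among complement receptors and regulators, 5 of 22 were called lower and 1 higher in striatum. That is no larger a share than the 32.3% over all genes called in either direction (15.8% lower and 16.5% higher). The lower ones were Cd59a, which blocks the membrane attack complex (9.26 ± 1.28 CPM in Het against 14.3 ± 3.04 CPM in WT; -0.63, edgeR adjusted p = 7.73e-07), Cd55, which destabilises C3 convertases (-0.41, adjusted p = 0.000159), Cd93 (-0.32, adjusted p = 2.39e-05), the neuronal gene Sez6 (-0.30, adjusted p = 1.97e-06) and Clu, or clusterin (-0.19, adjusted p = 0.000194). In cortex 1 of 22 was called, Clu, at -0.11 (adjusted p = 0.0222), no larger a share than the 6.83% over all genes there.

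Markers of other cells were also called in Het striatum, in the fit that called 15.8% of all genes lower and 16.5% higher. All 10 genes of striatal projection neurons were called lower (summed level 4420 to 5980 CPM in neo-out Het against 8210 to 10400 CPM in neo-out WT, and 5010 to 5880 CPM in neo-in Het against 8680 to 11000 CPM in neo-in WT). So were 8 of 10 endothelial and mural cell genes (397 to 424 CPM in neo-out Het against 425 to 480 CPM in neo-out WT, and 388 to 439 CPM in neo-in Het against 456 to 581 CPM in neo-in WT). In the same fit the calls were 6 lower and 1 higher of 12 astrocyte genes, 5 lower and 1 higher of 10 oligodendrocyte genes, and 1 higher of 9 tested border macrophage genes (Cd163, 0.24, edgeR adjusted p = 0.0170). Of the other lists, 2 of 11 reactive astrocyte genes were lower, 1 of 10 general neuron genes was higher and 1 lower, 1 of 8 cortical neuron genes was higher, and 1 of 8 choroid plexus genes was lower. Further, 1 of 5 tested Kupffer cell genes was lower (Clec1b, with 0.208 ± 0.112 CPM in Het against 0.354 ± 0.136 CPM in WT; -0.83, adjusted p = 0.0112), and 1 of 3 lymphocyte genes was lower, namely Cd4 (-0.65, adjusted p = 1.33e-10). None of these lists had a gene at 0 in every library, and the part of these cells in the receptor result was not tested. Monocyte and neutrophil genes summed to at most 9.38 CPM in any striatum library, with 3 of 9 passing the filter and 0 of those called by edgeR, DESeq2 or limma or below an unadjusted p of 0.05. Of 5 tested red blood cell genes and 2 tested hepatocyte genes, these tools also called 0, with 0 below an unadjusted p of 0.05.

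Within groups, most of the 10 genes varied together from animal to animal. After the mean of each line, genotype and sex was taken off, 39 of their 45 pairs correlated positively over the 31 striatum libraries (median Pearson r 0.44), 37 over the 32 cortex libraries (median 0.53) and 45 over the 32 liver libraries (median 0.50). The C1q chains were the tightest: C1qa with C1qb reached 0.91 in striatum and 0.98 in liver, and C1qa with C1qc 0.94 in cortex. The C1qa level per C1qb, in FPKM, had a coefficient of variation of 5.52% in Het and 6.04% in WT striatum, and C1qc per C1qb one of 6.77% in Het and 8.58% in WT striatum, while C1qb itself varied by 15.1% in Het and 14.3% in WT striatum. Trem2 per Tyrobp, the receptor and its adaptor, varied by 13.3% in Het and 10.8% in WT striatum.

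In brain P2ry12 correlated negatively with the C1q chains (r = -0.36 to -0.53 in striatum and -0.41 to -0.56 in cortex) and with Tmem119 (-0.43 and -0.37), but positively with Aif1 (0.44 and 0.20). In liver its r was positive with all 9 others, from 0.06 with Trem2 to 0.70 with Csf1r. One animal shows the contrast with C1qb in both regions: neo-in WT male replicate 3 had the lowest P2ry12 of its group, 28.5 CPM in striatum and 19.8 CPM in cortex, and the highest C1qb, 57.6 and 52.1 CPM. Across the 31 animals with both regions, C1qb in striatum followed C1qb in cortex after group means were taken off (Pearson r = 0.64, permutation p adjusted over the 10 genes = 0.0012; Spearman rho = 0.57, adjusted p = 0.0117; r = 0.65 without the 2 animals farthest from the median). P2ry12 had r = 0.55 (permutation adjusted p = 0.0112) and rho = 0.37 (adjusted p = 0.0935), but r = 0.25 without 2 animals, so its relation rests on those. C1qa had r = 0.44 (permutation adjusted p = 0.0407) and rho = 0.36 (adjusted p = 0.0935). Cx3cr1 (rho = 0.47) and Csf1r (rho = 0.48) passed by rank only (permutation adjusted p = 0.0266 each), and the other 5 did not pass by either measure. The permutations shuffled values over all 31 animals, with no allowance for the group means taken off. These p-values are therefore too small, and the passes of C1qa, Cx3cr1 and Csf1r are not settled.

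The genes most like the mean of the 10, out of 14137 non-member genes with at least 1 CPM in both regions, were Laptm5 (r = 0.89 in striatum and 0.87 in cortex), Itgb5, Cyba, Unc93b1, Rack1, Rps19, Gm9843 and Ftl1 (the smaller r 0.77). Laptm5 and Itgb5 are in the list of microglia markers, and Cyba and Unc93b1 are known in phagocytes, but Rack1 and Rps19 encode parts of the ribosome. Likeness went with base composition: over 14000 genes, r with the mean of the 10 rose with the GC content of the longest transcript (Spearman rho 0.73 in striatum and 0.70 in cortex, across genes, which share the libraries and are not independent). The median GC content was 57.3% among the 100 genes highest in likeness and 49.7% over all. P2ry12, at 38.6%, has the lowest GC content of the 10 genes, and C1qa, at 59.5%, the highest. With the mean of the ribosomal protein genes, C1qc correlated at 0.89, Trem2 at 0.84 and Tmem119 at 0.82 in striatum, Cx3cr1 at 0.11 and P2ry12 at -0.24.

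In the plot of likeness against GC content the 10 genes cannot be set against genes of like GC content, since each of them is part of the mean it is correlated with and the other genes are not. The mean log2 CPM of ribosomal protein genes overlapped between genotypes in striatum, at 6.25 to 6.52 in neo-out Het against 6.34 to 6.58 in neo-out WT and 6.30 to 6.58 in neo-in Het against 6.32 to 6.55 in neo-in WT. With that mean as a covariate, an alternative chosen after the likeness ranking was seen, the Het effects on Cx3cr1 and Csf1r in neo-in striatum still passed. In striatum these genes correlated with that mean at only 0.11 and 0.34, so the covariate could change their values little. A part of base composition in these effects was not tested.

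**Figure D5:**
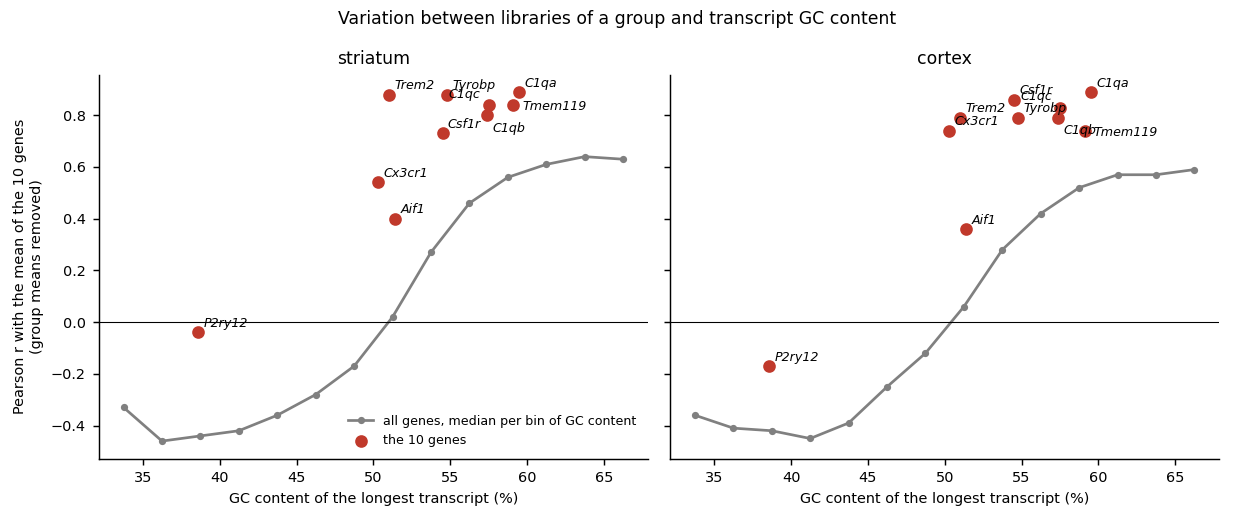
Pearson r of each gene with the mean of the 10 genes, after group means were removed, against GC content in percent, in striatum (left) and cortex (right); the grey line is the median of all genes per bin of GC content and the red points are the 10 genes. The line climbs from -0.46 (bin starting at 35.0%) to 0.64 (bin starting at 62.5%) in striatum and from -0.45 to 0.59 in cortex, and P2ry12 (38.6% GC) lies at -0.04 and -0.17.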

How the data were processed

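Gene expression was measured by mRNA-seq in 95 libraries of striatum, cortex and liver from 32 mice, grouped by line, genotype and sex as the labels give them. Total RNA was extracted with a miRNeasy kit from frozen tissue, per the labels' protocols. Base calling used CASAVA 1.8.2 and the genome was mm10, per the submitters' processing notes; which aligner, counter, strand setting or gene models were used is not given in the sources used here. The authors deposited estimated counts per gene (an expected count need not be whole; 32.2% of values above 1 were not, at a tolerance of 1e-06), FPKM per gene, and, per the file headers, an alignment count per library and the CAG number of each Het mouse.

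Estimated counts were rounded. Of 39179 gene identifiers, 37607 were named through GENCODE M21. Genes were filtered by edgeR's filterByExpr within each tissue and scaled by TMM, and CPM are counts per 1e+06 of the scaled totals (log2 CPM with a prior count of 2). Comparisons used edgeR's quasi-likelihood test (edgeR 4.0.16, R 4.3.3) with 1 term for each line, genotype and sex, all groups of a tissue sharing 1 estimate of spread, Benjamini-Hochberg adjustment over all genes tested and a threshold of 0.05; intervals are 95% confidence intervals. Tests between tissues used 1 fit over both, with no term for the animal, although the same animals gave both tissues. A refit with the animal as a block kept all 30 values per gene on their side of the threshold. Nothing in the labels says whether litters were shared, so p-values measure the spread between these animals. The scripts were tested on simulated data. Correlations across animals used 100000 permutations over all animals, with no allowance for the group means taken off (scipy 1.17.1).

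Alternatives were other scalings, no filter, DESeq2 1.42.0, limma 3.58.1 on log2(FPKM + 0.1) and the replicate number as a block. Libraries were also left out in turn, or because they stood apart in Slc17a7 or Ttr (over 3 times the median). In tests between tissues whole animals were left out in turn. A ribosomal covariate was added after the data were seen. Same-numbered Het and WT libraries of a line and sex did not deviate together (r -0.18 to 0.22 over 15 striatum pairs, 4 of them over 0.1; -0.22 to 0.09 over 16 cortex pairs; -0.10 to 0.24 over 16 liver pairs), so the numbers were not taken to pair animals. No 2 replicates agreed within sampling noise (lowest chi-square per gene 4.14 over 141 pairs).

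The 10 genes and all lists were chosen with earlier results of these data known. Named besides them are up to 4 genes a list with the smallest p among those called in Het striatum or cortex, every ligand, genes overlapping a member, Htt and the 8 genes most like the mean of the 10.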

Additional observations from a re-analysis of the deposited data

Results flagged for a closer look

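In groups of 4 animals of 1 line, genotype and sex, 18 of 230 groups of values held a library far from the other libraries of its group, where chance flags about 1 in 20 groups. In striatum these were P2ry12 in neo-in Het male replicate 3 (38.6 CPM, the others 42.5 to 43.2), Tmem119 in neo-out WT female replicate 3 (19.4 CPM, the others 13.8 to 14.6), Tyrobp in neo-in WT male replicate 2 (10.6 CPM, the others 12.4 to 12.5), C1qb in neo-in WT male replicate 3 (57.6 CPM, the others 41.2 to 42.9) and in neo-out WT female replicate 3 (52.1 CPM, the others 36.4 to 37.5), and Aif1 in neo-in WT female replicate 4 (5.9 CPM, the others 4.72 to 4.9). Neo-out WT female replicate 3 is among the 7 striatum libraries that stood apart.

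In cortex the C1q genes had 4 such values: C1qa at 44.1 CPM in neo-in WT female replicate 3 (the others 28.1 to 30.1) and at 36.6 CPM in neo-out WT male replicate 4 (27.2 to 28.7), and C1qc at 34.8 CPM in that same neo-out WT male (25.6 to 26.7) and at 22.6 CPM in neo-out WT female replicate 2 (26.6 to 26.9). Cx3cr1 and Csf1r were both high in neo-out Het male replicate 1, at 52.6 CPM (45.3 to 45.9) and 104 CPM (91.4 to 93.2), the animal whose striatum was not analysed here. Cx3cr1 was low in neo-in WT male replicate 2 (43.7 CPM, the others 50.2 to 51.0). Trem2 was low in neo-in Het male replicate 1 (8.95 CPM, the others 10.6 to 10.9), Tyrobp high in neo-out WT female replicate 1 (11.2 CPM, the others 8.76 to 9.03) and Aif1 high in neo-in Het male replicate 4 (4.21 CPM, the others 3.56 to 3.62). In liver Trem2 was high in neo-in Het male replicate 3 (1.34 CPM, the others 0.348 to 0.499) and low in neo-out Het male replicate 2 (0.269 CPM, the others 0.555 to 0.567), at 9 to 47 counts in Het livers.

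The Het effect differed between brain regions for Cx3cr1 (-0.145, striatum less cortex, edgeR adjusted p = 0.0166) and for Csf1r (-0.156, adjusted p = 0.0219).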

How the results depend on the processing

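No value past the threshold changed sign under any alternative. Of 9210 alternative values per gene, 530 had the opposite sign to the reported one. Among these, 425 came from leaving out 1 library or animal. The other 105 included 34 from the ribosomal covariate and 31 from limma. Each was past the threshold in neither fit (lowest reported edgeR adjusted p 0.103), so the sign of those small differences is not settled. Of the values per gene, DESeq2 kept 209 on their side of the threshold and moved 1 past it, limma kept 200, lost 5 and gained 5, and the unfiltered fit kept 236 and lost 4; both other scalings kept all 240. The calls for Cx3cr1 and Csf1r in neo-in striatum held under every alternative. Low counts limit Trem2, P2ry12, Cx3cr1 and Tmem119 in liver most.

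Counts of the 10 genes changed as follows. The 3 called in striatum with both lines became 1 with limma and 2 with no filter, with the replicate block and without the libraries that stood apart (Aif1 lost in each); the 2 in neo-in striatum became 3 with the ribosomal covariate (Tyrobp), and the 9 in WT striatum against cortex became 8 with no filter (C1qc). The 1 called between WT lines in striatum became 0 with no filter, with limma and without the libraries that stood apart; the 1 between WT lines in liver became 0 with no filter and with limma. The 1 called in neo-out Het liver became 0 with the replicate block, limma and the ribosomal covariate. The 1 called between sexes in liver became 6 with limma and 0 with the covariate, and the line difference in liver had 1 with DESeq2 and 0 without it.

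Counts over all genes moved by over 1.5 times as follows. Without the libraries that stood apart, striatum had 1344 for neo-out Het (3185 with them), 0 for the line difference (1), 8 between WT lines (83) and 22 between sexes (67). With the replicate block, which the check of the numbers gives no ground for, 161 genes were called in neo-in Het cortex (292 without it), 260 in neo-out Het cortex (489), and 182, 30 and 79 in neo-in, neo-out and both lines of Het liver (82, 81 and 10); 148 values per gene kept their side and 2 lost it. DESeq2 called 3 for the line difference, 194 between WT lines, 198 between sexes and 1 for genotype by sex in striatum; 445 for neo-in Het, 7, 491, 107 and 13 for these in cortex; and 314, 166 and 122 for neo-in, neo-out and both lines of Het, 320 for the line difference and 20 for genotype by sex in liver. Limma called 55 between WT lines in striatum and, in liver, 10 for neo-in Het, 81 for the line difference and 1 for genotype by sex. The unfiltered fit called 48 for neo-in Het liver. The ribosomal covariate gave 177 between WT lines in striatum; 618, 1173 and 1817 for neo-in, neo-out and both lines of Het cortex, 3 for the line difference, 820 between WT lines, 129 between sexes and 12 for genotype by sex in cortex; and 46 and 33 for neo-in and neo-out Het, 54 for the line difference and 3201 between sexes in liver.

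With 1 library left out in turn, members called ranged from 2 to 3 for neo-in Het, 0 to 1 for neo-out Het, 2 to 3 for both lines and 0 to 1 between WT lines in striatum, and stayed at 0 for its other comparisons and for all of cortex. In liver they ranged from 0 to 1 for neo-out Het and for the line difference, 0 to 2 between WT lines and 1 to 3 between sexes, and stayed at 0 elsewhere. In tests between tissues, where 1 animal with all its libraries was left out in turn, members called were 8 to 9 for WT striatum against cortex. They were 1 to 2 for the Het effect in striatum less cortex and 9 for liver against cortex. The share of genes called, of those each refit tested, ranged from 17.1% to 20.2%, 13.8% to 18.8% and 28.7% to 33% for neo-in, neo-out and both lines of Het striatum, 0.00557% to 0.0113% for its line difference, 0.254% to 0.729% between WT lines, 0.24% to 0.893% between sexes and 0% for genotype by sex. In cortex the ranges in the same order were 1.12% to 1.74%, 1.82% to 2.88%, 5.69% to 6.79%, 0% to 0.017%, 0.852% to 2.76%, 0.216% to 0.534% and 0% to 0.0681%. In liver they were 0.026% to 1.94%, 0.208% to 0.838%, 0.0195% to 0.195%, 0.325% to 1.95%, 7.28% to 12%, 46.5% to 50.7% and 0% to 0.013%. With 1 animal left out they were 72.2% to 73.9% for WT striatum against cortex, 9.53% to 11.3% for striatum less cortex and 92.3% to 92.7% for liver against cortex. The cause of these shifts was not tested.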
